A study of Homo sapiens with 9 samples.

Results

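LY6E, RTP4, XAF1, IFI6, IFI27, IFI44, IFI44L, CMPK2, RSAD2 and ISG20 are 10 effector genes of the type I interferon response, and they were followed across 9 RNA-seq libraries of U251 cells. The 10 genes were chosen by their symbols, as classical interferon effectors that include the largest rises at day 7. They are 10 of the 22295 entries of the deposited table, and 10 of the 15551 that passed a filter on low values. Their day 7 levels therefore chose them, and every difference that involves day 7 is given for them as a description with no test. The only comparison that did not enter the choice is that of the 2 groups of 3 days post infection (dpi).

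U251 is an established human glioblastoma line, and all 3 groups carry a lentivirus that delivers a short hairpin RNA. The sh-Luci-3d cells (n = 3 libraries) received a control hairpin against luciferase and were collected at 3 dpi. The sh-Ptbp1-3d cells (n = 3) and the sh-Ptbp1-7d cells (n = 3) received the hairpin against PTBP1, an RNA-binding splicing repressor, and were collected at 3 and 7 dpi. Neuronal induction medium replaced the growth medium 2 days after infection, per the study's cell culture methods. Its RNA-seq methods do not name the medium. If the sequenced cells were treated in that way, all 3 groups had been in it, the 7 dpi cells for longest. A 7 dpi control with sh-Luci is not among the libraries analysed. Against sh-Ptbp1-3d, which carries the same hairpin, the added days after infection and any added days in this medium cannot be told apart. Against sh-Luci-3d, the hairpin cannot be told apart from either of them. Nothing in the labels says whether the 3 libraries of a group came from separate cultures, so p-values measure only the spread between these libraries.

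Values are FPKM, fragments scaled to transcript length and to the mapped fragments of the library, so levels can be compared between genes. The sequencing depth is unknown and no counting interval can be given. PTBP1, the targeted gene, measured 115.7 ± 7.58 FPKM in the control libraries (SD, n = 3), 63.9 ± 2.67 in sh-Ptbp1-3d and 50.5 ± 0.645 in sh-Ptbp1-7d. Of 10 markers of glioblastoma lines, 7 had a mean of 1 FPKM or more in each group, while CHI3L1 was listed at 0 in all 9 libraries and the group means of GFAP and S100B stayed below 1 FPKM. Their summed level was 4457 to 4580 FPKM in sh-Luci-3d, 4575 to 4873 in sh-Ptbp1-3d and 1452 to 1542 in sh-Ptbp1-7d. Most of this sum was VIM, which fell at 7 dpi to sh-Ptbp1-3d together with CD44, whereas TNC and S100B rose. Thus 2 of the 9 tested were higher and 2 lower, against 8.31% and 5.9% of all genes. Of 15 markers of blood and immune cells, 14 were below 1 FPKM in each group, 7 of them at 0 in all 9 libraries, among them CD163, CD3E and the plasmacytoid dendritic cell marker CLEC4C. The sum of these 15 was 10.3 to 11.5 FPKM, 10.8 to 11.5 and 16.2 to 19.1 in the 3 groups, and most of it was CD68. In bulk libraries, fewer cells of one kind and less RNA per cell cannot be told apart.

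Type I interferons are secreted when a cell senses viral or misplaced nucleic acid. They bind the receptor pair IFNAR1 and IFNAR2, whose kinases JAK1 and TYK2 activate the transcription factor complex ISGF3. STAT2 and IRF9 are among its subunits, and it binds the interferon-stimulated response element (ISRE) in front of its target genes. The effectors then act on different steps of a viral life cycle or on the survival of the cell.

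The promoter sequences were examined first, and their letters were not used to choose the genes. The genes were chosen by role as interferon effectors, though. The share with an ISRE core is thus a description and not independent of the choice. RefSeq windows of 300 bases (250 before and 50 after a transcription start, GRCh38.p14) were matched for 9 of the 10 genes, in 15 windows. The ISRE core was searched as GAAANNGAAA, on both strands (TTTCNNTTTC on the other). It was found in 7 of the 9 genes, in 20 of the 34 other interferon-stimulated effectors with a window, and in 4.38% of all 27305 genes with windows. Among windows of genes tested here, 4.08% of 10784 genes held it. The following stretches give where it lies in IFI6, IFI44L, IFI27, IFI44 and RSAD2, with the ISRE core in capitals, 5′ to 3′ on the strand of the gene.
IFI6 (chr1:27672251-27672373, minus strand): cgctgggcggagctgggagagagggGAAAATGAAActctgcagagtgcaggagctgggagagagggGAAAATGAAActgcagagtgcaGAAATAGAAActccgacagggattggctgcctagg
IFI44L (chr1:78620259-78620409, plus strand): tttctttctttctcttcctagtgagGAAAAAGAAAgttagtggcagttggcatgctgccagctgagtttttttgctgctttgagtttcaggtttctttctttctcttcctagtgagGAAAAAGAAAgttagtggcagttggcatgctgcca
IFI27 (chr14:94110603-94110675, plus strand): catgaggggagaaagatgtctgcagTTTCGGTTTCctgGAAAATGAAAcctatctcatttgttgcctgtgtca
IFI44 (chr1:78649746-78649805, plus strand): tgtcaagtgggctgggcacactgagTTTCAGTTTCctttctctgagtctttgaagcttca
RSAD2 (chr2:6877607-6877666, plus strand): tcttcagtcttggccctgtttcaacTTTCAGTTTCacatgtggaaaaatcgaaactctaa

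IFI6 held 3 cores, at -156, -115 and -93 from the start, the first 2 of them inside a stretch of 29 bases that occurs 2 times. IFI44L held 2 cores, at -164 and -73, each inside a copy of a 60-base repeat. In IFI27, 2 cores stood on opposite strands, and the letters of a GAS core (TTCNNNGAA, the interferon gamma-activated site) lay across the gap between them and overlapped both. IFI27 was the 1 gene of the 9 with a GAS core, against 11 of the 34 other effectors and 9.38% of all genes. By GENCODE v29, the IFI6 cores lie before the gene and in an intron of the antisense gene AL445490.1, those of IFI27 and RSAD2 lie in introns of the gene itself, and that of IFI44 lies in no gene. One of the IFI44L cores is intronic and the other exonic, since the annotated gene starts ahead of this promoter.

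CMPK2 and XAF1 had no ISRE core in their windows. Their windows held a closer pair, GAAANGAAA (TTTCNTTTC on the other strand), a search added after the sequences had been seen. This pair was in 4 of the 9 genes, CMPK2, RSAD2, XAF1 and IFI44, in 13 of the 34 other effectors and in 3.87% of all genes. In IFI44 it overlaps the ISRE core. RSAD2 had 4 copies in its upstream window, and the 2 copies in the CMPK2 window are the same DNA read from the other strand. The sites that fall in untranslated exons are given as short stretches, with the ISRE core (RTP4, ISG20) or the closer pair (RSAD2 and CMPK2, XAF1) in capitals.
RTP4 (chr3:187368357-187368386, plus strand): accgaacaccGAAACTGAAActgtttgtct
ISG20 (chr15:88638937-88638966, plus strand): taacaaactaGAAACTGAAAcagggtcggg
RSAD2 and CMPK2 (chr2:6865815-6865843, plus strand): gcgttgcgggGAAACGAAAgccggaggcc
XAF1 (chr17:6756031-6756059, plus strand): ttgcctgcaaGAAACGAAActcaaccgaa

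RTP4 held a second ISRE core, at -42 besides the one shown at -18. Letters that match a motif are not a measured binding site, and no binding data were used here.

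**Figure D1:**
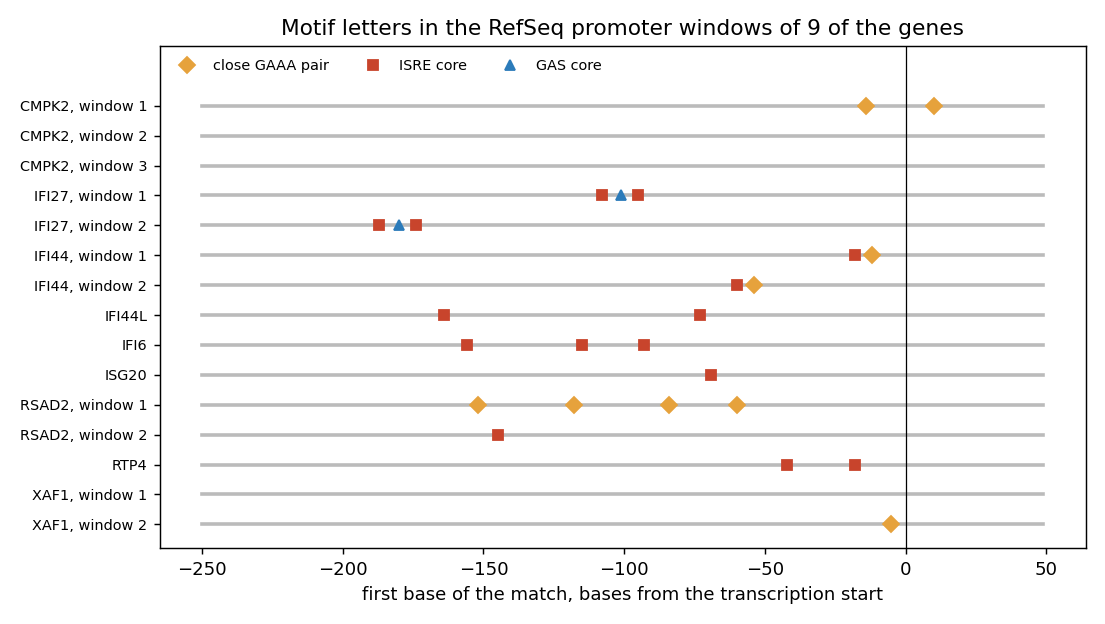
Positions of the searched motifs in the 15 RefSeq promoter windows of 9 genes. The x axis is the first base of each match in bases from the transcription start (0), each grey line is one window, and squares, triangles and diamonds mark the ISRE core, the GAS core and the closer GAAA pair. IFI6 shows 3 ISRE cores, IFI27 a GAS core across 2 ISRE cores, and the upstream RSAD2 window 4 closer pairs.

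The first group of members acts on nucleotides and nucleic acids. RSAD2 encodes viperin, a radical SAM enzyme that converts CTP into a chain terminator of viral polymerases. It was at 5.70, 12.0 and 7.84 FPKM in sh-Luci-3d, at 6.72, 5.98 and 9.75 FPKM in sh-Ptbp1-3d and at 97.5, 97.5 and 87.2 FPKM in sh-Ptbp1-7d. The 2 groups of 3 dpi overlapped, and the lowest 7 dpi library was 7.25 times the highest of them. On the log2(FPKM + 0.1) scale RSAD2 at 7 dpi stood 3.66 above sh-Ptbp1-3d (standard error 0.24).

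CMPK2, its neighbour on chromosome 2, encodes a mitochondrial nucleotide kinase. The control libraries read 6.01, 12.3 and 8.06 FPKM, those of sh-Ptbp1-3d read 7.86, 7.64 and 11.1 FPKM, and there were 49.4, 52.2 and 46.6 FPKM in sh-Ptbp1-7d. At 3 dpi the levels of CMPK2 and RSAD2 overlapped in both groups, while at 7 dpi every RSAD2 value lay above every CMPK2 value. For CMPK2 the log2 difference of 7 dpi to sh-Ptbp1-3d was 2.48 (standard error 0.22). RSAD2 (chr2:6865806-6898239, plus strand) and CMPK2 (chr2:6840570-6866635, minus strand) are annotated head to head with 830 bases in common. Whether strand was used in counting is not given in the sources used here, so fragments from the shared bases cannot be told apart.

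ISG20, an exonuclease that degrades RNA from its 3′ end, was at 0.832, 1.69 and 2.66 FPKM in sh-Luci-3d. It read 1.09, 1.47 and 1.31 FPKM in sh-Ptbp1-3d and 17.3, 18.1 and 14.7 FPKM in sh-Ptbp1-7d. The 3 dpi libraries all stayed below 3 FPKM and those of 7 dpi all above 14 FPKM, a log2 difference of 3.60 to sh-Ptbp1-3d (standard error 0.31).

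Next come the proteins of the cell surface and of receptor traffic. LY6E, a lipid-anchored surface protein that restricts the entry of coronaviruses, gave the largest difference of the 10. Its libraries were at 14.0, 24.7 and 30.5 FPKM in sh-Luci-3d, at 19.9, 21.0 and 35.2 FPKM in sh-Ptbp1-3d and at 2112, 2061 and 2276 FPKM in sh-Ptbp1-7d. LY6E went from rank 2640 of the 15551 genes by mean FPKM in sh-Ptbp1-3d to rank 15 in sh-Ptbp1-7d. The log2 difference was 6.45 (standard error 0.27), a ratio of group means of 84.8, and it ranked 2 of 15551 genes.

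RTP4, a chaperone that carries certain G protein-coupled receptors to the surface, was hardly detected at 3 dpi. The control libraries read 0.105, 0.0621 and 0.0989 FPKM, and those of sh-Ptbp1-3d read 0, 0.151 and 0.247 FPKM. At 7 dpi it stood at 14.0, 13.8 and 15.9 FPKM. With the control hairpin RTP4 averaged 0.0886 ± 0.0231 FPKM (SD, n = 3), just below the 0.1 FPKM that the filter on low values asked for. With the PTBP1 hairpin its average at 3 dpi was 0.132 ± 0.124 FPKM, just above that limit. Its log2 difference of 6.15 (standard error 0.38) rests on the pseudocount of 0.1, which is close to the 3 dpi levels themselves.

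The third group acts at mitochondria, at the endoplasmic reticulum or in cell death. XAF1 encodes a protein that binds the apoptosis inhibitor XIAP and promotes cell death. It was at 0.535, 1.02 and 0.571 FPKM in sh-Luci-3d, at 0.358, 0.664 and 0.633 FPKM in sh-Ptbp1-3d, and at 42.1, 43.4 and 45.3 FPKM in sh-Ptbp1-7d. Like RTP4 it moved from a low level into a range far above all 6 libraries of 3 dpi, with the lowest 7 dpi value 41.1 times the highest 3 dpi value. The log2 difference to sh-Ptbp1-3d was 6.10 (standard error 0.24).

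IFI6, a small hydrophobic protein that counteracts apoptosis and blocks flavivirus replication at the endoplasmic reticulum, was already abundant at 3 dpi. It stood at 447, 661 and 1051 FPKM in sh-Luci-3d and at 780.5, 748 and 859.8 FPKM in sh-Ptbp1-3d. At 7 dpi its libraries held 11650.5, 11244 and 10580.2 FPKM. IFI6 was the gene with the highest mean FPKM of all 15551 in sh-Ptbp1-7d, after rank 58 in sh-Luci-3d and rank 60 in sh-Ptbp1-3d. By itself it took 3.17%, 3.06% and 2.79% of the summed FPKM of the 3 libraries of 7 dpi. Its log2 difference of 3.81 (standard error 0.24) ranked 49 of 15551.

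IFI27, of the same family as IFI6 and found at mitochondria, read 147, 226 and 280.4 FPKM in sh-Luci-3d. In sh-Ptbp1-3d it was at 225, 228 and 280.0 FPKM, and in sh-Ptbp1-7d at 2177, 2217 and 2019 FPKM. Its 7 dpi level did not differ from that of LY6E beyond the spread of the libraries, although every LY6E value had been below every IFI27 value at 3 dpi. The log2 difference of IFI27 to sh-Ptbp1-3d was 3.13 (standard error 0.19).

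IFI44 and IFI44L are related cytoplasmic proteins, and their genes lie 3650 bases apart on chromosome 1. IFI44 stood at 134, 197 and 144 FPKM in sh-Luci-3d, at 120.3, 130.3 and 141 FPKM in sh-Ptbp1-3d and at 366, 362 and 368 FPKM in sh-Ptbp1-7d. IFI44L stood at 51.6, 83.7 and 49.9 FPKM, at 39.7, 41.6 and 46.1 FPKM and at 196, 174 and 143 FPKM in the same order. Both had libraries of 7 dpi above all of 3 dpi, by the smallest margins of the 10 genes: the lowest 7 dpi value was 1.84 times the highest 3 dpi value for IFI44 and 1.71 times for IFI44L. Their log2 differences to sh-Ptbp1-3d were 1.49 (standard error 0.13) and 2.0 (standard error 0.18), and IFI44 ranked 761 of 15551 genes.

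**Figure D2:**
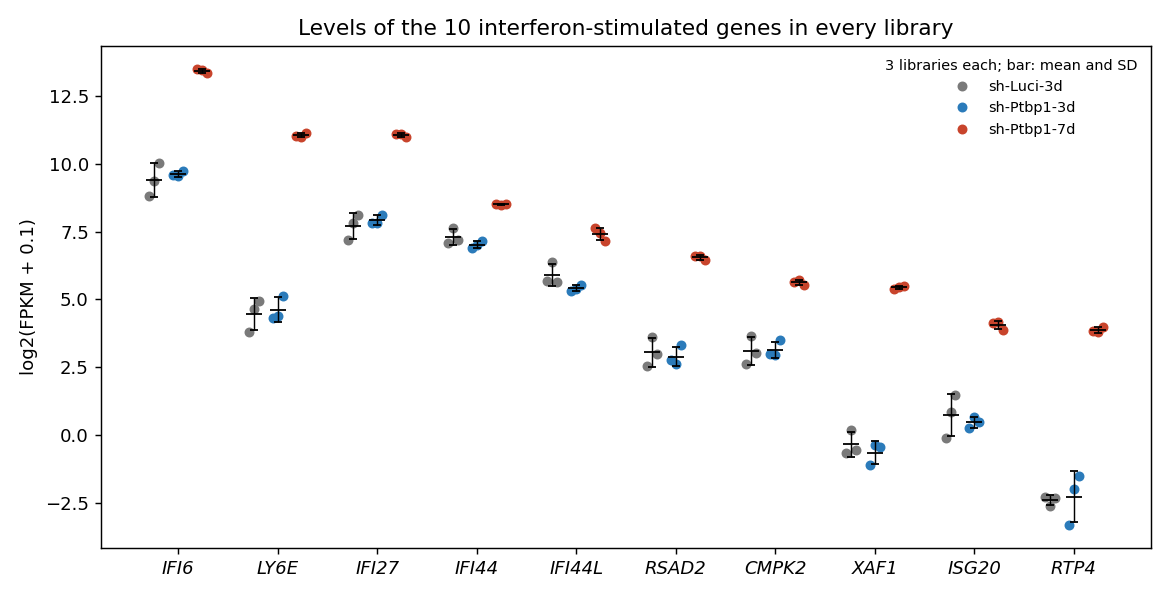
Levels of the 10 genes in all 9 libraries. The y axis is log2(FPKM + 0.1), each point is one library, and the bars give the mean and SD of the 3 libraries of a group. The 7 dpi points lie above all 3 dpi points for every gene, with IFI6 on top and the smallest gap in IFI44 and IFI44L.

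By levels, the order in sh-Luci-3d ran from IFI6 (719 ± 306 FPKM, SD, n = 3) over IFI27, IFI44, IFI44L, LY6E, CMPK2, RSAD2, ISG20 and XAF1 to RTP4. The neighbours IFI27 and IFI44, CMPK2 and RSAD2, and ISG20 and XAF1 overlapped in that group and did not differ beyond their spread. The order of means was the same in sh-Ptbp1-3d, where of all neighbours only CMPK2 and RSAD2 overlapped. In sh-Ptbp1-7d it ran IFI6, LY6E, IFI27, IFI44, IFI44L, RSAD2, CMPK2, XAF1, ISG20 and RTP4, with overlaps of LY6E with IFI27 and of ISG20 with RTP4. LY6E was thus above IFI44 and IFI44L at 7 dpi and overlapped IFI27, having been below all 3 of them at 3 dpi. The 10 genes together held 0.208% to 0.392% of the summed FPKM in sh-Luci-3d libraries, 0.292% to 0.358% in sh-Ptbp1-3d and 4.11% to 4.55% in sh-Ptbp1-7d.

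The comparison of sh-Ptbp1-3d with sh-Luci-3d asked whether the 10 genes differed once PTBP1 was lowered, at the same day. With limma over all 15551 genes, 0 of the 10 passed the thresholds (more than a 2-fold change, FDR below 0.05), against 0.0129% of all genes (2 genes) in either direction. Without sh-Luci-3d replicate 3 these calls over all genes came to 37 higher and 22 lower, with 0 members among them. The study reported many more genes for this pair at the same thresholds, by a test that its methods do not name. At an unadjusted p under 0.05 there was 1 of the 10, IFI44L, against 1126 of all genes. Its log2 difference was -0.50 (standard error 0.18, limma adjusted p = 0.619), with group means of 42.5 ± 3.28 and 61.8 ± 19.0 FPKM (SD, n = 3). Without sh-Luci-3d replicate 2, its highest library, the difference was -0.26. IFI44L was also the 1 gene with every sh-Ptbp1-3d library below every sh-Luci-3d library, a pattern found in 4.93% of all genes. The opposite pattern was found in 0 of the 10 and in 5.86% of all genes.

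The other 9 genes overlapped between the 2 groups. Their log2 differences ran from -0.30 (standard error 0.24) for XAF1 to 0.23 (standard error 0.24) for IFI6, with limma adjusted p from 0.717 to 0.971. The largest standard error, 0.38 for RTP4, stood against 0.13 for IFI44, so a difference of a given size was far less detectable in RTP4. Of the 10 differences, 5 were positive and 5 negative, and their median was -0.05, against 0.01 over all genes. This median became -0.28 without sh-Luci-3d replicate 1, -0.26 without sh-Ptbp1-3d replicate 3 and 0.08 without sh-Luci-3d replicate 2, so its sign rests on single libraries. The smallest two-sided p that an exact permutation test allows for one gene in such a design is 0.1. A p that misses the threshold does not show that the groups were alike.

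At 7 dpi the 10 genes differed widely in the size of their change. Past a fold change of 2 and an FDR of 0.01 against sh-Ptbp1-3d, 8.31% of all genes were higher and 5.9% lower. No such call is given for the 10, because day 7 chose them. Every 7 dpi library was above every 3 dpi library for all 10, as it was for 29% of all genes. The median log2 difference was 3.63 to sh-Ptbp1-3d and 3.43 to sh-Luci-3d, while over all genes it was 0.09 and 0.10. Against sh-Luci-3d, where 8.93% of all genes were higher and 5.68% lower, the differences of the 10 ran from 1.22 for IFI44 and 1.50 for IFI44L to 6.29 for RTP4 and 6.61 for LY6E. After quantile normalization 1077 of all genes were higher and 1114 lower in that comparison, in place of 1388 and 883. These 2 comparisons share the 7 dpi libraries.

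**Figure D3:**
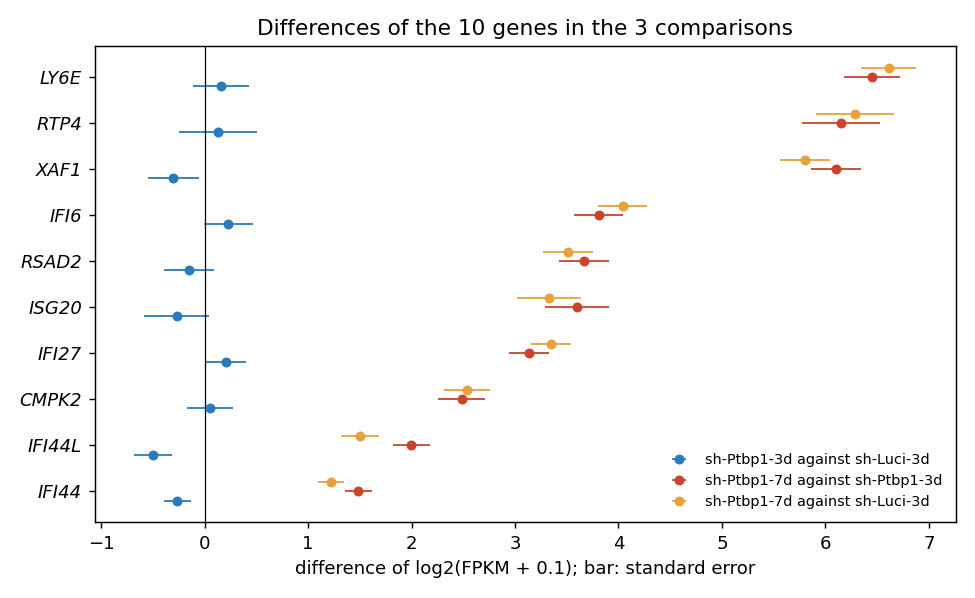
Differences of the 10 genes in the 3 comparisons. The x axis is the difference of log2(FPKM + 0.1), points are limma estimates and bars their standard errors. The comparison of the 2 groups of 3 dpi lies between -0.50 and 0.23, and both comparisons with 7 dpi lie between 1.22 and 6.61.

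By the size of the day 7 difference, the name of strongest effectors describes only part of the 10. The largest rises at day 7 entered the choice, so these ranks are a description and no test of the name. A list of 43 other interferon-stimulated effectors was read from the same fit, and 42 of them could be tested. LY6E, RTP4 and XAF1 were above all 42 in the difference of sh-Ptbp1-7d to sh-Ptbp1-3d, and 6 of the 42 were above IFI6, the fourth of the 10. For LY6E this held with a pseudocount of 1 as well, an alternative added after the data were seen. IFITM1 was then above XAF1, and IFITM1, MX2, APOL1, TRIM22 and OAS2 were above RTP4. With a pseudocount of 0.01, APOBEC3G was above LY6E and XAF1, and 0 of the 42 were above RTP4. At the other end, 28 of the 42 were above IFI44. Of the 10 genes, 7 were among the 100 largest differences of all genes, and CMPK2, IFI44L and IFI44 were not.

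The libraries of a group also differed among themselves, and in sh-Luci-3d the 8 members at 1 FPKM or more varied more than most genes. Their median coefficient of variation was 36.5%, against 12.4% over all genes at that level and 23.6% over the other effectors. In sh-Ptbp1-3d it was 13.6% over 8 members, 6.62% over all genes and 9.14% over the other effectors. In sh-Ptbp1-7d it was 5.44% over 10 members, 8.22% over all genes and 5.89% over the other effectors. The sh-Luci-3d replicate 1 was the lowest of its group for 8 of the 10 genes, and for 30 of the 42 other effectors, while it was lowest in 23.4% of all genes. LY6E, IFI6, IFI27 and ISG20 were highest in sh-Luci-3d replicate 3, whereas XAF1, IFI44, IFI44L, CMPK2 and RSAD2 were highest in replicate 2. The other effectors were highest in replicate 2 for 32 of 42.

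In sh-Ptbp1-3d, replicate 3 was highest for 8 of the 10 genes and 38 of the 42 other effectors, and lowest for 0 of either, although it was the lowest library for 52.9% of all genes. LY6E was at 35.2 FPKM there, against 19.9 and 21.0 in the other 2 libraries. At 7 dpi the spread was narrow, down to 0.789% for IFI44, and widest in IFI44L with 15.5%. What set these libraries apart within their groups was not tested.

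**Figure D4:**
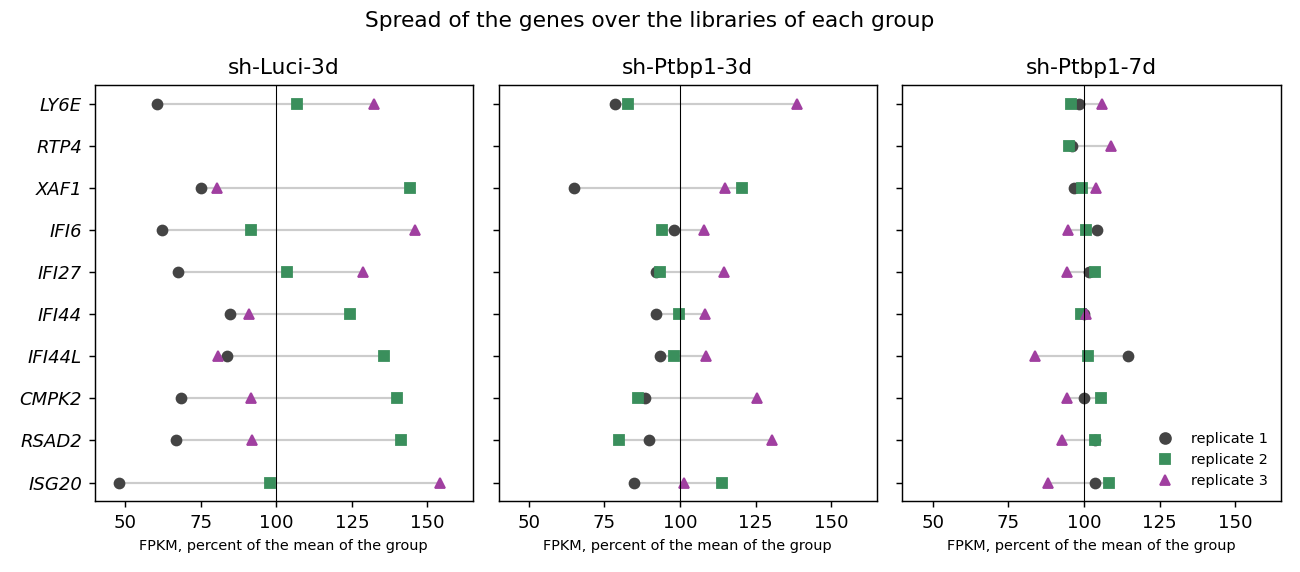
Each library of each gene as a percent of the mean of its group, one panel a group (x axis, percent; y axis, gene; marker shape and colour, replicate). RTP4 is left out of the 3 dpi panels because of its low level. In sh-Luci-3d, replicate 1 is lowest for every gene drawn but IFI44L, and the 7 dpi points lie closest to 100 for all genes but IFI44L.

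The pathway around the 10 genes was read from lists chosen by role, with earlier results of these data known. The shares over all genes to set beside the counts are 8.31% higher and 5.9% lower against sh-Ptbp1-3d. Against sh-Luci-3d they are 8.93% and 5.68%. Of the 42 other effectors tested, 36 rose and 0 fell at 7 dpi against sh-Ptbp1-3d. They had a median log2 difference of 1.74. APOL1, a trypanolytic apolipoprotein, was at the top with 5.24 (standard error 0.19, limma adjusted p = 1.36e-08), from 0.677 ± 0.166 to 28.8 ± 1.40 FPKM (SD, n = 3). TRIM25, a ubiquitin ligase that activates RIG-I, was at the bottom with 0.05. Against sh-Luci-3d 33 of the 42 rose. Between the 2 groups of 3 dpi 0 of 42 were called, against 0.0129% of all genes. An unadjusted limma p under 0.05 was found for 3 of the 42, near the share over all genes, 1126 of 15551. Of these 3 dpi differences 34 of 42 were negative, with a median of -0.14, against 0.01 over all genes. Those of 7 of 7 sensors of nucleic acids were negative too, none of them called. Within sh-Luci-3d, replicate 2 was the highest library for 32 of the 42 effectors. Whether the signs rest on single libraries was not tested.

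Upstream of the effectors, 21 genes for interferons were in the table, 9 of them listed at 0 in all 9 libraries. IFNB1, the beta interferon made by most nucleated cells, was listed at 0 in all sh-Luci-3d libraries, at 0, 0.116 and 0 FPKM in sh-Ptbp1-3d, and at 0.567, 0.294 and 0.762 FPKM in sh-Ptbp1-7d. IFNB1 passed the filter on low values through its 7 dpi libraries alone, and its levels were below 1 FPKM throughout. IFNE, the only other interferon gene tested, differed by -0.07. Of the 6 receptor chains 0 were called, a list too small to set apart from the shares over all genes (8.31% higher and 5.9% lower). IFNGR1 had the largest difference, 0.66, and IL10RB the smallest, -0.08.

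Among the kinases and ISGF3 subunits, STAT2 rose at 7 dpi against sh-Ptbp1-3d, from 39.1 ± 2.01 to 111 ± 6.76 FPKM (SD, n = 3), a log2 difference of 1.50. The kinase JAK2 rose as well, by a log2 difference of 1.26. IRF9 differed by 0.86 and JAK1, the smallest of those reported, by -0.59, and neither reached the fold threshold. Of 5 other IRF factors tested IRF1 alone was called, with 1.93, while IRF7, which drives the second wave of interferon genes, differed by 0.25 and IRF5 by -0.50.

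Of the sensors of nucleic acids 5 of 7 rose at 7 dpi against sh-Ptbp1-3d, where 8.31% of all genes were higher. ZBP1 rose most with 2.95, and MAVS, the mitochondrial adaptor of RIG-I and MDA5, had the smallest difference with -0.93. Against sh-Luci-3d, MAVS fell by 1.03 on the log2 scale and the same number of sensors, 5 of 7, rose. Of 5 brakes on the pathway tested, 2 rose, and the deconjugase of ISG15, USP18, was largest with 1.94 and the phosphatase PTPN2 smallest with 0.23. Against sh-Luci-3d 3 of the 5 rose. Of 14 genes best known for interferon gamma 7 could be tested and 4 rose. IDO1, an enzyme of tryptophan breakdown, was largest with 5.14 and the class II regulator CIITA smallest with 0.52, and HLA-DRB1, HLA-DPA1 and CXCL9 were listed at 0 in all 9 libraries.

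**Figure D5:**
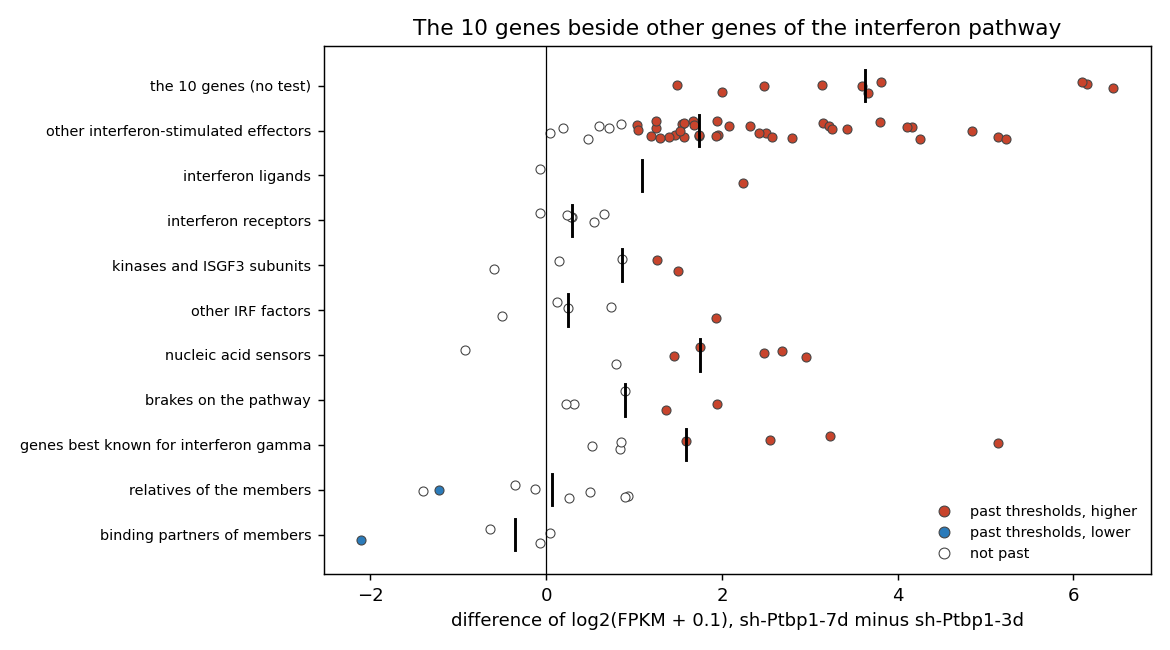
The 10 genes and 10 further lists, with the difference of log2(FPKM + 0.1) of sh-Ptbp1-7d minus sh-Ptbp1-3d on the x axis. Each point is a gene, the bar is the median of the list, and filled points are past a fold change of 2 and an FDR of 0.01. The fill of the 10 genes is not a test, because day 7 chose them. In the effector list 36 of 42 are past the thresholds, against 8.31% of all genes higher. For receptor chains it is 0 of 6 and for relatives 0 higher of 8, lists too small to set apart from that share.

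Relatives of the 10 genes by sequence family or enzymatic role did not share their size at 7 dpi. Of 12 relatives 8 could be tested. Against sh-Ptbp1-3d 0 of them rose and 1 fell, counts near the shares over all genes (8.31% higher and 5.9% lower). That 1 was CD59, a complement inhibitor of the LY6 family, with a log2 difference of -1.22 (limma adjusted p = 0.00127). LY6K differed by 0.26, and LY6H was detected in 1 library alone, sh-Ptbp1-3d replicate 3. The IFI27 relatives IFI27L1 and IFI27L2 differed by 0.93 and -0.36, and IFI27L1 was past the thresholds only against sh-Luci-3d, with 1.04. CMPK1, the cytosolic nucleotide kinase, differed by -0.13, and the nucleases AEN and ISG20L2, relatives of ISG20, by 0.90 and 0.50. LY6D and RTP3 were listed at 0 in all 9 libraries, and RTP1 and RTP2 were below 0.1 FPKM in every group.

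The lists also held 4 genes whose proteins bind members, and 1 of them was called, lower, as were 5.9% of all genes. XIAP, bound by XAF1, differed by -0.07. IRAK1 and TRAF6, which viperin engages in plasmacytoid cells, differed by -0.63 and 0.04. FDPS, the farnesyl diphosphate synthase that viperin binds, fell from 339 ± 21.6 to 78.9 ± 2.27 FPKM (SD, n = 3), a log2 difference of -2.10 (limma adjusted p = 4.46e-08).

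Genes nearest to the median profile of the 10 over the 9 libraries were sought among 13614 other tested genes with a symbol, by the root mean square difference of log2 values centred on sh-Luci-3d. The nearest 5 were IFIT2 (0.142), TAP1 (0.165), GBP1 (0.169), IFITM3 (0.170) and BTN3A2 (0.177). IFIT2, for example, stood at 21.3 ± 7.77, 20.5 ± 6.71 and 213 ± 21.4 FPKM in the 3 groups. Of the 10 genes themselves RSAD2 lay nearest to that median profile, at 0.167, and LY6E farthest, at 1.84. ETV5, one of the candidate genes of the study, ranked 7 at 0.241, nearer than the members ISG20 (0.336), IFI6 (0.460) and CMPK2 (0.537). Likeness to this profile is therefore not particular to interferon effectors. It is a description over 9 libraries, and most of it is the step between 3 and 7 dpi.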

How the data were processed

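RNA from U251 cells was sequenced on Illumina HiSeq, and the authors deposited FPKM values for 22295 entries in 9 libraries, with HISAT2 and GRCh38 named in the submitters' processing notes. The counting program, its version and its use of strand are not given in the sources used here. The table's columns without a sample numbered 0. The authors also deposited the coordinates of 2363 assembled loci, a table of another kind of value used only for the build and for loci near the genes: 49.6% of 43315 exons equal a GENCODE v29 exon, and no assembled locus lay within 10 kb of the 10 genes.

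Samples were grouped by their labels. Entries with a mean of at least 0.1 FPKM (15551) were fitted as log2(FPKM + 0.1) with limma 3.58.1 in R 4.3.3, all 9 libraries in one model with an intensity trend, with Benjamini-Hochberg adjustment over all entries tested. Changes of genes with low FPKM are understated on this scale. For its 2 comparisons the study's thresholds were used, more than a 2-fold change at an FDR below 0.05 for 3 dpi and below 0.01 for 7 against 3 dpi; the latter pair was applied here to 7 dpi against the control as well. The model was tested on simulated data. Depth is unknown, since FPKM here hold no whole-read steps.

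The members and lists were chosen with earlier results of these data known. Named genes are the 10 members, PTBP1, IFNB1, STAT2, IRF9 and IRF7, the largest and smallest difference of each list, the relatives and partners of members, and the 5 nearest profiles. JAK1, JAK2, IRF1, IRF5, MAVS, ETV5, the effectors above members with other pseudocounts, the marker genes and genes listed at 0 are named besides, after their values were seen. Replicate numbers were checked for pairing: same-numbered libraries deviated from their group means with r from -0.032 to 0.051 over 9 pairs. Over all pairs of libraries from different groups r ran from -0.073 to 0.061. No pairing by number was seen over all genes, and pairing in single genes was not excluded. Antisense genes overlapping IFI6, LY6E and XAF1 were not in the table. Alternatives were other pseudocounts, filters and scalings, the 2 groups alone, no trend, a replicate block, no assembled loci and leaving out each library. Python 3.11.15 with matplotlib 3.10.9 made the figures. Proteins were not compared, and 1 gene of the lists is not reported here.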

Additional observations from a re-analysis of the deposited data

How the results depend on the processing

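Over 20 alternatives, 9 of them leaving out a library, 0 of the 10 genes were called at 3 dpi, and the lowest limma adjusted p of a member was 0.06, for IFI6 without sh-Luci-3d replicate 3. Of 200 values, 11 changed sign, in 7 genes, while XAF1, IFI44 and IFI44L kept theirs. RTP4 went from 0.13 to -0.38 with a pseudocount of 0.01. Leaving out libraries gave ranges of -0.16 to 0.40 for LY6E, -0.25 to 0.65 for RTP4, -0.068 to 0.55 for IFI6, -0.049 to 0.42 for IFI27, -0.19 to 0.32 for CMPK2, -0.40 to 0.13 for RSAD2 and -0.69 to 0.10 for ISG20, and of -0.45 to -0.039 for XAF1, -0.37 to -0.096 for IFI44 and -0.63 to -0.26 for IFI44L; leaving out sh-Luci-3d replicate 1 turned LY6E, IFI6, IFI27 and CMPK2, replicate 2 RSAD2 and replicate 3 ISG20, while sh-Ptbp1-3d replicate 3 turned LY6E, RTP4 and CMPK2, and replicate 2 RTP4. The cause was not tested. The median of the 10 ran from 3.32 to 3.77 against sh-Ptbp1-3d and from 3.17 to 3.62 against sh-Luci-3d at 7 dpi, and other effectors called numbered 34 to 36 and 30 to 35. A rescaling to TPM moved the median of all genes at 7 dpi against sh-Ptbp1-3d from 0.09 to 0.19, and quantile normalization moved it to -0.01. Genes called there numbered 1293 higher and 918 lower, 692 and 563 with a pseudocount of 1, 1589 and 819 as TPM, and 1033 and 1072 after quantile normalization. Against sh-Luci-3d, 1388 higher and 883 lower became 741 and 528 with a pseudocount of 1. With the replicate number as a block, 0 members and 36 and 33 other effectors were called, the same counts as without it; over all genes the calls went from 2 to 0 at 3 dpi and from 1293 and 918 to 1248 and 892 at 7 dpi against sh-Ptbp1-3d. Depth and strand of counting limit low genes, RTP4 above all, and the bases that CMPK2 and RSAD2 share.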
